A study of Danio rerio with 6 samples.

Results

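Probes for Janus kinases (JAK), signal transducers and activators of transcription (STAT), interferon regulatory factors (IRF) and suppressors of cytokine signalling (SOCS) were followed in olfactory rosettes, the paired nasal organs of the zebrafish (Danio rerio). They were chosen by name, as the probes whose annotated gene symbol begins with jak, stat, irf or socs and a digit. The rule found 13 of 15885 probes, for 12 genes: jak1 (with 2 probes), jak2a, jak2b, stat2, stat3, irf9, irf1a, irf2a, irf2bpl, socs3b, socs3a and socs6b. All 13 passed the filter on dim probes, and each exceeded the blank spots on all 6 arrays. The symbol irf2bpl names an IRF2-binding protein-like gene and no IRF, so it matched by spelling only. Other relatives were not analysed here. The genes stat2, irf9, irf1a and socs3b were singled out because their difference between the groups was already known from these arrays, so their differences are described without a p-value.

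The mutant group comprised 3 samples from adult fish homozygous for a Rag1 mutation, and the other group 3 samples from their wild-type siblings. All fish were untreated, 1 to 2 years old and of mixed sex, and each sample was hybridised to 1 array in 1 colour after labelling of total RNA by in vitro transcription. The labels give neither the Rag1 allele nor the number of fish behind a sample. Since no label says whether separate animals gave the samples, the p-values rest on a spread between samples that could be technical. One source field of mutant replicate 2 reads wild type, whereas its title and strain field give the mutant; the array was analysed as a mutant.

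Cytokines and interferons bind receptors that carry JAK kinases on their inner side. The kinases phosphorylate the receptor and STAT proteins, which then enter the nucleus and activate genes. In mammals, type I interferon brings STAT2 and IRF9 together in a complex that binds the promoters of interferon-stimulated genes. SOCS genes are themselves induced by STAT proteins, and their products bind JAKs or receptors and dampen the signal. In the nose this pathway serves the defence of an epithelium that is in open contact with water, as well as repair after damage.

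Values are log2 brightness after background correction and quantile normalization, in which 1 unit is a doubling. They compare arrays for 1 probe, not 1 probe with another. Across the 6 arrays the median gene spot was 4.75 to 7.21 times as bright as the blank spots. Of 15617 probes tested with limma, 747 passed an adjusted p of 0.05, 379 higher and 368 lower in the mutants. The probe of rag1 read 6.68, 6.74 and 11.92 on mutant arrays 1 to 3, against 6.48, 6.71 and 6.64 on wild-type arrays 1 to 3. Except on mutant array 3 it was close to the blank spots, so it checks no label.

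The highest family differences were those of stat2, socs3b and irf9, each more than 1 log2 unit higher in the mutants. Of the 13 family probes, 3 passed limma's adjusted p of 0.05, all higher in the mutants and all among the 4 singled out. Of all probes tested, 2.43% were higher and 2.36% lower by the same rule. Since the 3 genes were chosen for this difference, nothing is read from that count. The median difference over the 13 probes was 0.16, against 0.01 over all probes tested. Over the 9 probes that were not singled out it was 0.01.

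**Figure D1:**
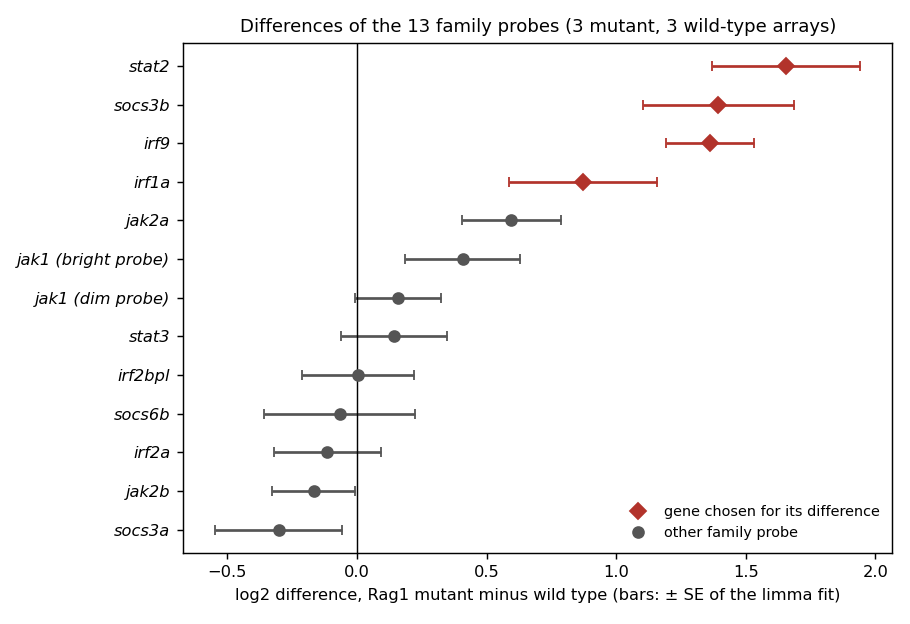
Log2 difference of each family probe, Rag1 mutant minus wild type, with bars of ± 1 SE from the limma fit (3 arrays per group). Diamonds mark the 4 genes chosen with their difference known, which range from 0.87 for irf1a to 1.66 for stat2; circles mark the other 9 probes, which range from -0.30 for socs3a to 0.60 for jak2a.

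None of the 4 probes of receptor-bound kinases passed the test. The bright probe of jak1, the kinase shared by interferon receptors and many cytokine receptors, read 14.15, 13.96 and 13.68 on mutant arrays 1 to 3, against 13.73, 13.07 and 13.77 on wild-type arrays 1 to 3. The groups overlapped, and only wild-type array 2 stood clearly below the rest. The difference was 0.41 (SE 0.22, 95% interval -0.11 to 0.93, n = 3 per group, limma adjusted p = 0.357), and it was 0.18 without wild-type array 2. The other jak1 probe was only 1.32 to 1.51 times as bright as the median blank spot, so little can be read from its difference of 0.16 (SE 0.17, limma adjusted p = 0.668).

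jak2a and jak2b are both zebrafish counterparts of JAK2, the kinase of the erythropoietin and growth hormone receptors. The jak2a probe read 8.65, 8.91 and 8.98 on mutant arrays 1 to 3, against 7.89, 8.32 and 8.54 on wild-type arrays 1 to 3. All mutant arrays were above all wild-type arrays, though mutant array 1 and wild-type array 3 lay 0.11 apart. Including jak2a, 4 of 13 family probes had mutant arrays that all lay above the wild-type arrays, a pattern seen in 13.0% of all probes tested. The others were stat2, socs3b and irf9, which were chosen for their difference, so nothing is read from that count. Among the probes not singled out, jak2a was the only one with this pattern. The jak2a difference of 0.60 (1.51-fold, SE 0.19, 95% interval 0.15 to 1.04) had an adjusted p = 0.127 in limma and was not called. With the replicate number as a block, the same difference had a limma adjusted p = 0.0478, the lowest of all alternatives, and the highest was 0.394. This probe is dim, at 1.94 to 3.94 times the median blank spot. jak2b differed by -0.17 (SE 0.16, 95% interval -0.54 to 0.21, limma adjusted p = 0.635), with overlapping groups.

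Of the STAT genes, stat2, which serves interferon signalling, was the one with separated groups. The stat2 probe read 15.48, 15.13 and 14.51 on mutant arrays 1 to 3, against 13.59, 12.94 and 13.62 on wild-type arrays 1 to 3. The lowest mutant array was 0.88 above the highest wild-type array. The mean difference was 1.66 (3.15-fold, SE 0.29), with an SD of 0.50 in the mutants and 0.39 in wild type. The probe was bright on every array, at 54.6 to 300 times the median blank spot, and saturated on none. stat3, which acts downstream of receptors of the interleukin-6 type, averaged 10.27 ± 0.25 in the mutants and 10.12 ± 0.32 in wild type (SD, n = 3 each). Its difference of 0.14 (SE 0.20, 95% interval -0.33 to 0.62, limma adjusted p = 0.766) was smaller than either SD, and the groups overlapped.

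A ratio within each array set stat2 against stat3, with the wild-type mean at 0. The log2 ratio was 2.05, 1.79 and 0.70 on mutant arrays 1 to 3, against -0.06, -0.09 and 0.15 on wild-type arrays 1 to 3. Mutant array 3 thus had a much smaller shift than the other mutant arrays, as it combined the lowest stat2 and the highest stat3 reading of its group. The groups did not overlap, but stat2 was chosen for its difference and stat3 differed little, so the ratio is no further check.

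**Figure D2:**
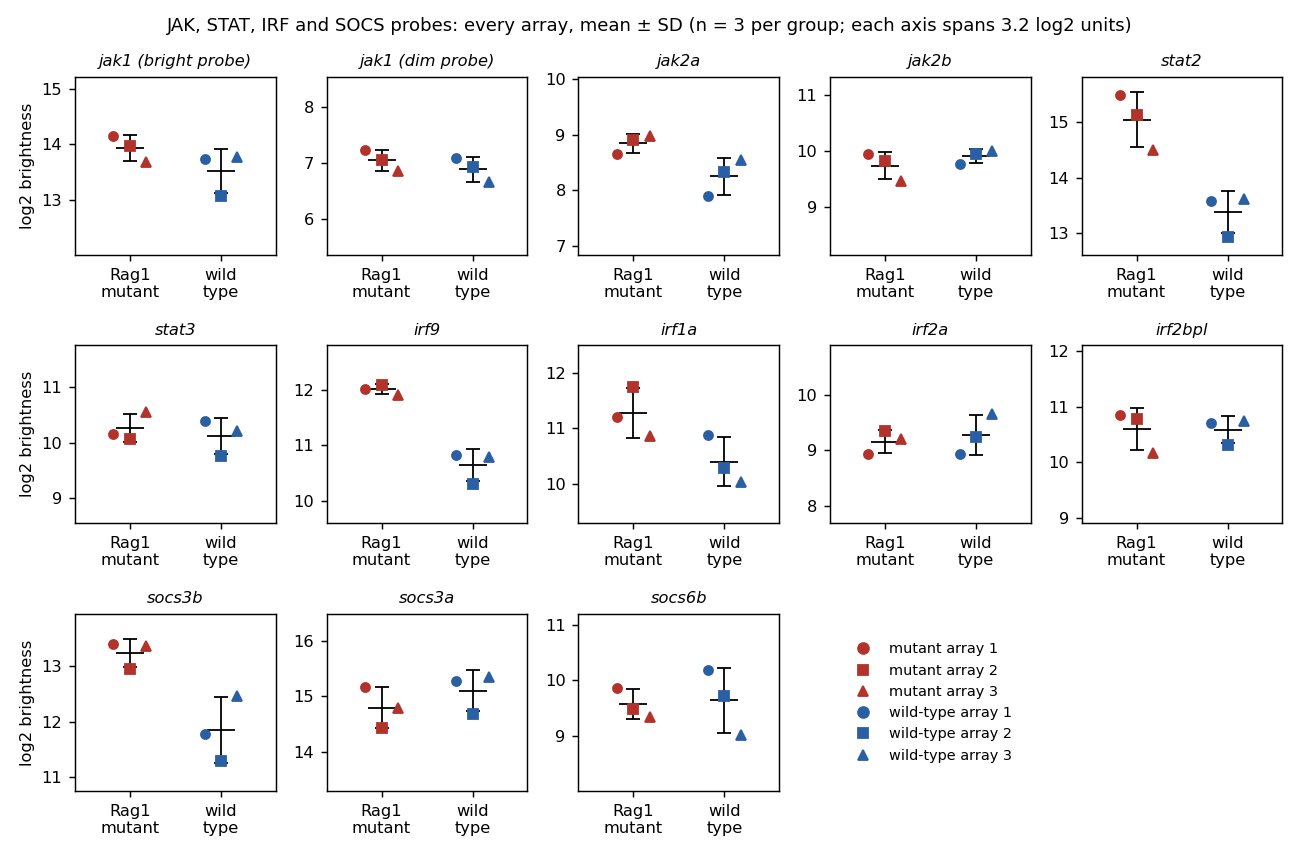
Log2 brightness of the 13 family probes on every array, mutants to the left of wild type; horizontal marks and whiskers give mean ± SD (n = 3 per group), and symbols give the array number. In stat2, socs3b, irf9 and jak2a all mutant arrays lie above all wild-type arrays, while in the other 9 panels the groups overlap.

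irf9, whose product carries the DNA contact of the complex with STAT2, gave the tightest mutant readings of the family. It read 12.02, 12.09 and 11.91 on mutant arrays 1 to 3, against 10.83, 10.31 and 10.80 on wild-type arrays 1 to 3. The groups were separated by 1.08 between the lowest mutant and the highest wild-type array. The mean difference was 1.36 (2.57-fold, SE 0.17), with an SD of 0.09 in the mutants and 0.29 in wild type. Taken as a ratio to stat2 within each array, with the wild-type mean at 0, irf9 gave -0.73, -0.30 and 0.15 on mutant arrays 1 to 3, against -0.02, 0.11 and -0.09 on wild-type arrays 1 to 3. The ratio of the partners had an SD of 0.44 on the mutant arrays and of 0.10 on the wild-type arrays, with 3 arrays behind each SD.

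irf1a encodes a transcriptional activator that is induced by interferon gamma in mammals. Its probe read 11.21, 11.75 and 10.86 on mutant arrays 1 to 3, against 10.89, 10.29 and 10.04 on wild-type arrays 1 to 3. The groups touched: mutant array 3 was just below wild-type array 1. The difference was 0.87 (1.83-fold, SE 0.29), and it was 0.64 without mutant array 2 and 1.11 without wild-type array 1. irf2a, a counterpart of IRF2, which competes with IRF1 for the same DNA element, averaged 9.16 ± 0.21 in the mutants and 9.27 ± 0.36 in wild type (SD, n = 3 each). It differed by -0.12 (SE 0.21, 95% interval -0.60 to 0.37, limma adjusted p = 0.824), and the sign turned to 0.07 without wild-type array 3. The ratio of irf1a to irf2a within an array overlapped between the groups, as mutant array 3 gave 0.53 and wild-type array 1 gave 0.82 with the wild-type mean at 0. irf2bpl had nearly equal means, 10.59 ± 0.38 in the mutants and 10.59 ± 0.24 in wild type (SD, n = 3 each), with a 95% interval of the difference of -0.50 to 0.51.

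Among the feedback inhibitors, socs3b and socs3a are both counterparts of SOCS3, which blocks signalling by receptors of the interleukin-6 type. socs3b read 13.40, 12.95 and 13.37 on mutant arrays 1 to 3, against 11.78, 11.29 and 12.47 on wild-type arrays 1 to 3. Wild-type array 3 was the high one of its group, 0.48 below the lowest mutant array. The difference was 1.39 (2.63-fold, SE 0.29), and it was 1.71 without wild-type array 3 and 1.11 without wild-type array 2. socs3a was bright in both groups, at 15.17, 14.43 and 14.80 on mutant arrays 1 to 3, against 15.27, 14.68 and 15.35 on wild-type arrays 1 to 3. The groups overlapped, and the difference was -0.30 (SE 0.25, 95% interval -0.87 to 0.27, limma adjusted p = 0.56).

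Within each array the ratio of socs3b to socs3a, with the wild-type mean at 0, was 1.49, 1.78 and 1.82 on mutant arrays 1 to 3, against -0.24, -0.14 and 0.37 on wild-type arrays 1 to 3. This ratio varied less among the mutants (SD 0.18) than socs3b alone (SD 0.25). Since socs3b was chosen for its difference, the separation of the groups in this ratio is no further check. socs6b belongs to a SOCS branch that acts on receptor tyrosine kinases in mammals. It averaged 9.57 ± 0.27 in the mutants and 9.64 ± 0.58 in wild type (SD, n = 3 each), with a difference of -0.07 (SE 0.29, limma adjusted p = 0.94). Its wild-type readings spread over more than 1 log2 unit, so the 95% interval of the difference was wide (-0.75 to 0.61). The ratio of socs3b to socs6b was 1.32, 1.25 and 1.81 on mutant arrays 1 to 3, with the wild-type mean at 0. On wild-type arrays 1 to 3 that ratio was -0.61, -0.63 and 1.24, so the groups nearly touched.

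The count of 3 family probes past the threshold, which rests on genes chosen for this difference, was lower when arrays were left out. It was 1 without mutant array 1, mutant array 2 or wild-type array 2, where 1.58%, 3.15% and 1.89% of all probes passed in either direction. It was 2 without mutant array 3, wild-type array 1 or wild-type array 3, where 1.90%, 3.80% and 1.91% of all probes passed. Without both number 2 arrays it was 0, where 0.510% of all probes passed (80 probes by limma). Over the 18 alternatives the difference lay between 1.38 and 1.92 for stat2, 1.15 and 1.46 for irf9, 0.58 and 1.11 for irf1a, and 1.11 and 1.71 for socs3b. These genes were chosen by their differences on these same arrays, which fixed the direction and could favour large sizes. The ranges therefore describe only how the size moved with the arrays and processing used.

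**Figure D3:**
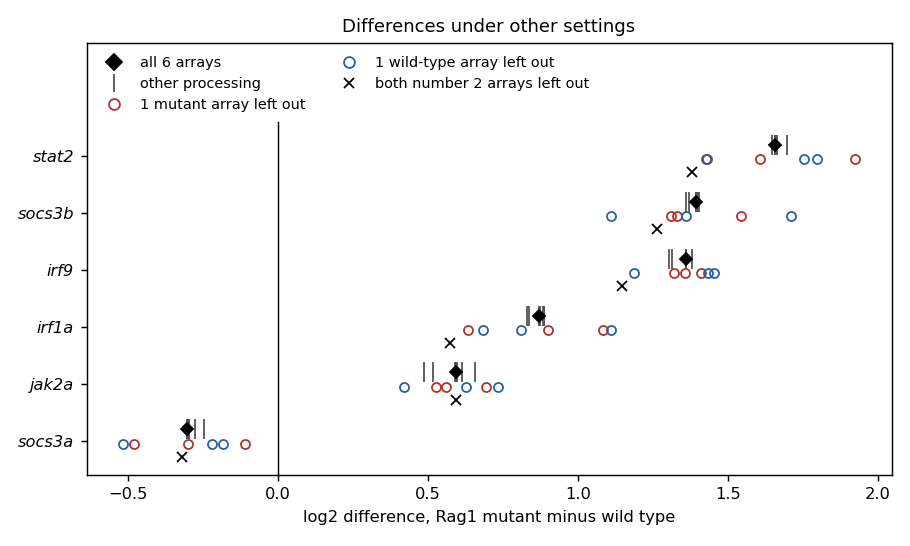
Log2 difference, Rag1 mutant minus wild type, of 6 family probes with all 6 arrays (diamonds), under other processing (ticks), with 1 mutant or 1 wild-type array left out (open circles) and with both number 2 arrays left out (crosses). Other processing moved stat2 between 1.65 and 1.70, whereas leaving out 1 array moved it between 1.43 and 1.92.

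Cytokine ligands and their receptors were thinly covered, and all gene lists were drawn up with earlier results of these data known. Of 39 listed cytokine ligand genes 3 were measured, and none passed. One of these, il34, at 0.33 (SE 0.15, limma adjusted p = 0.28), encodes a ligand of the receptor tyrosine kinase Csf1r and not of a receptor that carries JAKs. The interleukin-15-like gene il15l differed by 0.56 (SE 0.16, limma adjusted p = 0.0962). That adjusted p was 0.0445 with the replicate number as a block and at most 0.323 over the alternatives. The erythropoietin gene epoa differed by -0.52 (SE 0.12, limma adjusted p = 0.0534, from 0.0278 to 0.318 over the alternatives). For il15l all mutant arrays lay above all wild-type arrays, a pattern seen in 13.0% of all probes tested.

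Of 23 listed genes of interferon and class II cytokine receptors 3 were measured, and none passed. crfb1, which encodes a subunit of the zebrafish virus-induced interferon receptor, was at 0.26 (SE 0.12, limma adjusted p = 0.287). il20ra exceeded the blank spots on 0 of 3 mutant and 3 of 3 wild-type arrays, a level at least 1.66-fold lower in the mutants. It was therefore tested only through the wild-type arrays, and no p-value is given. Wild-type arrays 1 to 3 read 7.20, 6.33 and 7.32, so array 2 was itself close to the blank spots and added little to this bound. A bound of this kind sets the wild-type mean against the lowest signal above the blank spots on the mutant arrays, or the probe's own signal where that is higher.

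Of 33 other genes of receptors that signal through JAKs, 4 were measured, with a median of 0.81, and 1 rose. This was the prolactin receptor gene prlra, with 12.84, 13.38 and 12.13 on mutant arrays 1 to 3, against 10.36, 11.25 and 10.74 on wild-type arrays 1 to 3. It rose by 2.00 (SE 0.34, limma adjusted p = 0.0225). Of all probes tested, 2.43% rose and 2.36% fell. This list was drawn up with earlier results of these data known, so nothing is read from its count. Without mutant array 1, wild-type array 1 or wild-type array 3 the prlra difference was 1.97, 1.79 and 1.98 and did not pass (limma adjusted p of 0.0806, 0.0528 and 0.0774). Without both number 2 arrays prlra did not pass either. The growth hormone receptor gene ghrb differed by 1.02 and just missed the threshold (SE 0.24, limma adjusted p = 0.0581). Of the 4, 2 passed with a normexp offset of 16, 75th percentile scaling, cyclic loess, the authors' ratios or a variance trend.

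Of 32 listed genes, among them phosphatases, PIAS and adaptor genes, 15 regulators outside the family were measured, with a median of 0.04, and none passed. The largest differences were those of the ubiquitin ligase gene cblb (-0.52, SE 0.14, limma adjusted p = 0.0763, by the brighter of its probes) and the leukocyte phosphatase gene ptprc (0.43, SE 0.24, 0.376). The other cblb probe did not share that difference, at 0.05 (SE 0.18, limma adjusted p = 0.922) with overlapping groups. Of 42 listed sensors and adaptors that act upstream of IRFs, 6 were measured, with a median of -0.04, and none passed. The adaptor gene traf2b differed by 0.85 (SE 0.25, limma adjusted p = 0.101) and tax1bp1a by -0.52 (SE 0.16, 0.122). For traf2b the limma adjusted p was 0.0453 with the replicate number as a block and 0.0365 without mutant array 2. Its highest value over the alternatives was 0.238.

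Downstream, of 42 listed genes that interferons induce 13 were measured, with a median of 0.89. Of the 12 that exceeded the blank spots on all 6 arrays, 7 rose and none fell. Of all probes tested, 2.43% rose and 2.36% fell. This list was drawn up with earlier results of these data known, so nothing is read from that count. Among the 12, b2m reached the intensity ceiling, so its difference of 0.02 could not show a rise or fall. The 7 that rose (ifi27.3, cmpk2, phf11, ifi44a3, psmb8a, psmb9a and adar) had differences of 0.80 to 2.11. The probe of ifi44a3, of a family of interferon-induced proteins of unsettled function, rose by 1.63 (SE 0.19, limma adjusted p = 0.00634), while that of its relative ifi44a5 differed the other way. ifi44a5 read 6.11, 6.25 and 6.10 on mutant arrays 1 to 3, against 9.27, 9.81 and 9.66 on wild-type arrays 1 to 3. It exceeded the blank spots on 1 of 3 mutant arrays and was at least 10.2-fold lower in the mutants. This probe too was tested only through the wild-type arrays, and no p-value is given. The calls of adar and psmb8a ended without certain arrays. For adar these were all arrays but wild-type array 1 (0.71 to 0.86, limma adjusted p up to 0.127), and for psmb8a all but mutant array 1 (0.92 to 1.17, up to 0.0706). Without both number 2 arrays only phf11 of the 7 passed (limma adjusted p = 0.032), and the others had limma adjusted p from 0.0765 for cmpk2 to 0.256 for adar.

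**Figure D4:**
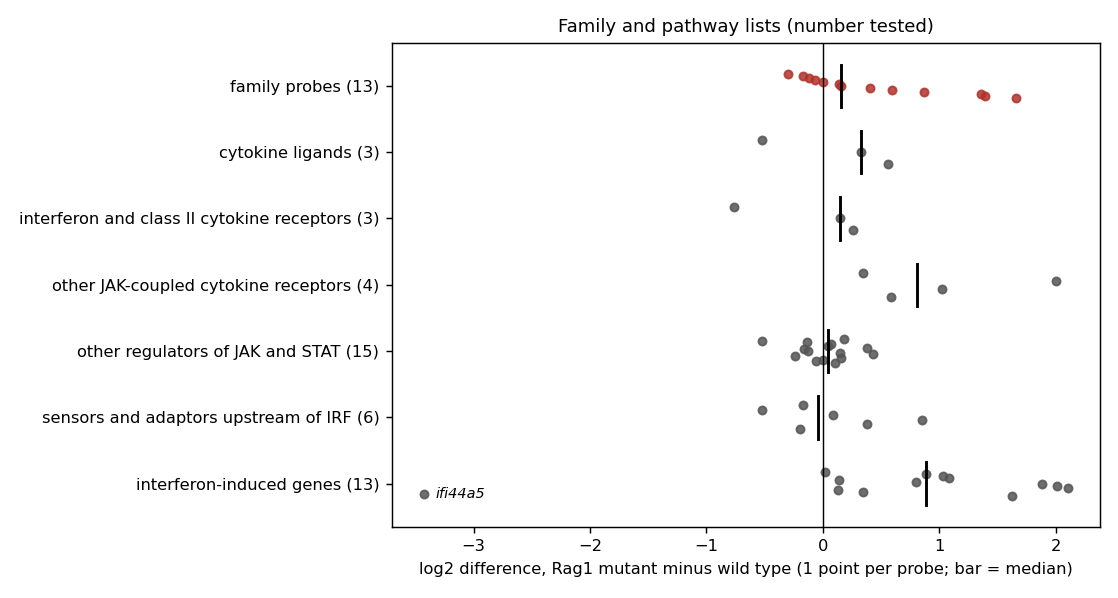
Log2 difference, Rag1 mutant minus wild type, of the family probes and of the tested genes of 6 pathway lists (1 point per probe, the bar is the median, numbers tested in brackets). The medians run from -0.04 for sensors and adaptors to 0.89 for interferon-induced genes, and ifi44a5 lies far below the rest.

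Likeness of pattern was measured as the root mean square difference between log2 values over the 6 arrays, each probe centred on its own mean, among 5550 named probes outside the family. Those nearest to stat2 were cmpk2 (0.26), a nucleotide kinase gene, ifi27.3 (0.27) and si:ch211-217k17.11 (0.27). Those nearest to socs3b were si:dkey-15j16.3 (0.25), the zinc finger gene znfx1 (0.26) and epgn (0.28), which encodes a ligand of the epidermal growth factor receptor. The distances include the difference between the groups, so they describe these arrays and are not independent of it.

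Markers of several cell types also differed between the groups, by the same rule that 2.43% of all probes tested passed as higher and 2.36% as lower. The marker lists, here and in the next paragraph, were drawn up with earlier results of these data known. Nothing is read from their counts. Of 7 macrophage markers measured, of 10 listed, 5 rose (mpeg1.1, csf1ra, spi1b, lcp1 and lgals9l1). The summed brightness of the 6 that were not saturated was 21100 to 26700 on mutant arrays, against 9020 to 13400 on wild-type arrays. Of these genes, lcp1 and spi1b are not confined to macrophages among leukocytes. The pan-leukocyte marker ptprc did not pass, as given above, and cd74a was saturated. Of 5 measured genes of the neutrophil list, of 9 listed, 4 rose (lyz, mpx, alox5ap and cpa5). Their list had sums of 10400 to 28000 on mutant arrays and 3290 to 3820 on wild-type arrays. In zebrafish cpa5 is used as a mast cell marker, so neither the count nor the sums are of neutrophils alone. Of 4 T-cell markers, of 9 listed, 2 fell (sums of 1640 to 2240 in mutants and 2880 to 3200 in wild type), and of 2 B-cell markers, of 5 listed, 1 fell (306 to 393 in mutants and 863 to 1660 in wild type). The T-cell markers that fell were zap70 and trac, whereas tox and runx3 differed by 0.56 and 0.73 (limma adjusted p = 0.0522 and 0.105). For tox and runx3 all mutant arrays lay above all wild-type arrays, as in 13.0% of all probes tested. One T-cell marker passed as higher under cyclic loess and without mutant array 3. All of these markers exceeded the blank spots on all 6 arrays. Between 96.69% and 99.52% of all probes did so on each array, so this does not show that a transcript was present. The macrophage count was 2 without mutant array 1, mutant array 3, wild-type array 2 or wild-type array 3, and the T-cell count was 1 without wild-type array 2. Without both number 2 arrays the macrophage, neutrophil, T-cell and B-cell counts were 1, 3, 0 and 0, that of red blood cell markers given next was 2, and that of olfactory sensory neuron markers was 0.

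Of 4 red blood cell markers, of 9 listed, 1 rose, with sums of 26300 to 67400 in mutants and 15500 to 20900 in wild type. That count was 3 without mutant array 2, 0 without any other single array, 2 with the replicate number as a block and 0 to 3 under other processing. Both measured markers of olfactory sensory neurons, cnga2 and gng13b, of 11 listed, fell. Their sums were 27000 to 33800 in mutants and 49000 to 59000 in wild type. The gng13b probe, with a wild-type mean of 15.46 against 12.92 for cnga2, made up most of these sums. With any 1 array left out only cnga2 passed, and gng13b (limma adjusted p = 0.0453) also missed the threshold under 3 other settings, the highest of these at 0.056. No surface epithelium marker passed among 6 measured of 7 listed, with sums of 116000 to 120000 in mutants and 110000 to 132000 in wild type. In these whole organs more cells of a type and more RNA per cell cannot be told apart. The part of these cell types in the differences of stat2, irf9, irf1a, socs3b and the other family genes was not tested.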

How the data were processed

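RNA of 3 Rag1 mutant and 3 wild-type samples was measured on 1-colour arrays. The deposited scanner tables give 1 intensity and 1 local background per spot, with no subtraction or normalization recorded per the file headers; the scanner is not given in the sources used here. Ratios in the authors' deposited value table are centred on each probe's median over the arrays, and served as an alternative. No sequence, genome build or coordinate is used. Intensities have a ceiling of 6553500, which is 100 times 65535, and were divided by 100, corrected with normexp (offset 50), freed of 2707 blank and 36 bacterial spots, and quantile normalized as log2 values in limma 3.58.1 (R 4.3.3). The 172 beta-actin spots were averaged. A block of 400 spots, misread by 1 row on wild-type array 2 (r = 0.241 in place, 0.981 after the move), held no family probe and was left out, as was 1 unreadable spot. Of 15885 probes, 15617 exceeded the 95th percentile of blank spots on all arrays of a group and were tested with lmFit and eBayes, 2-sided, with Benjamini-Hochberg adjustment. The lowest probes are limited by the blank spots, and the number of arrays limits precision. Symbols came from the platform annotation for 5772 probes; where a listed gene had several probes the brightest was used. Where an accepted symbol was lacking (10112 probes) the probe is unnamed here.

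Every family probe is accounted for, with array values for stat2, irf9, irf1a, socs3b and others past the threshold or differing by at least 0.5; bright jak1 and socs3a were added after their values were seen. From each pathway list the called genes are named or, where none was called, the 2 with the largest difference. The gene ghrb was added after its value was seen. Members and lists were chosen with earlier results of these data known. Same-numbered arrays deviated together (r = 0.317, 0.223 and 0.284 for numbers 1 to 3, and -0.252 to -0.068 for unlike numbers). Centring within each group makes positive and negative values balance, so the negative ones are no separate evidence. Only the number 2 is spelled out in titles of both groups, so the number as a block is an alternative. The other alternatives changed the background correction, normalization, filter, misread block, variance model and arrays used. The test was tried on simulated data.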

Additional observations from a re-analysis of the deposited data

How the results depend on the processing

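The 18 alternatives left the median difference of the family within the spread between replicates of its main value of 0.16. The count of 747 probes over the whole array was 247 to 598 when 1 array was left out: 247, 493 and 298 without mutant arrays 1, 2 and 3, and 598, 296 and 299 without wild-type arrays 1, 2 and 3. It was 80 without both number 2 arrays. The count of 3 family probes was 1 to 2 when 1 array was left out and 0 without both number 2 arrays, where fewer samples entered the fit. No background correction and the misread block kept as deposited each gave 2 family probes. With the replicate number as a block 1115 probes passed, 4 of them in the family, jak2a being added; il15l and traf2b also passed there, and it changed no other call of a family or pathway gene named in the text. Differences near 0 changed sign in some alternatives for irf2a, irf2bpl, socs6b and stat3. Closeness to the blank spots limits the dim jak1 probe, jak2a, il15l, epoa, il20ra and ifi44a5. It also limits ifi44a3 and si:dkey-15j16.3 in wild type. The epoa difference was -0.34 with no background correction and -0.67 with a normexp offset of 16.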
